A study of Mus musculus with 2 samples.

Results

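The type I interferon antiviral effector genes described here are 10 genes taken by symbol: Isg15, Isg20, Ifit1, Ifit2, Ifit3, Ifit3b, Rsad2, Usp18, Cmpk2 and Bst2. All 10 were found among the 31253 genes of both tables. They were chosen by name, with their UMI counts by class and library in these same data known, so their levels and ratios are given as a description and none was tested. The BD Rhapsody platform, in which cells settle in microwells with barcoded beads, had been used to sequence the RNA of single CD45+ leukocytes sorted from mouse intrahepatic cholangiocarcinoma, a bile duct cancer within the liver. Tumours of both groups were raised in C57BL/6 mice by hydrodynamic injection of transposon vectors for Myr-AKT, an active AKT kinase, and YAPS127A, an active YAP. In the NAV group the mice received NAV2729, a small molecule that blocks ARF GTPase activation, from day 7 at 30 mg/kg every other day for 7 days. In the MOCK group the mice carried the same vectors and had a mock treatment in its place. Each group is 1 pooled library, of 6 tumours by the series' design text and of 3 paired tumours by its protocol, and the sources used here give no age.

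The NAV library held 10465 barcodes and 31454031 UMIs (unique molecular identifiers, which count captured RNA molecules), and the MOCK library 10863 barcodes and 45976676 UMIs. After filtering, 9805 NAV cells with a median of 1978 UMIs and 10118 MOCK cells with a median of 3708 UMIs were analysed. The libraries shared 5 cell barcodes. Ptprc, which encodes CD45, had a UMI in 79.5% of NAV and 83.4% of MOCK cells. Hepatocyte markers summed to 12.8 and 6.67 CPM (UMIs scaled to a fixed total per class and library) in NAV and MOCK. The 7 markers of tumour or biliary epithelium summed to 676 and 346 CPM. They include Spp1, which was also a macrophage marker and led a macrophage-like cluster, so their sum does not measure tumour cells alone. The part of such RNA in the results was not tested. Clusters were built without the interferon genes and named from marker genes, with "-like" added because names rest on RNA. A total of 6 classes had at least 200 cells in each library and 7 more had at least 50. Since each group is a single library, spread between replicates could not be measured. The 95% intervals hold the counting error alone and treat UMIs as independent, although a single cell held up to 166 of the 9221 member UMIs in NAV and up to 223 of the 15353 in MOCK.

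Type I interferons are secreted proteins that bind a shared receptor, IFNAR, and through the kinases JAK1 and TYK2 switch on transcription factors. These bind a DNA element, the interferon-stimulated response element (ISRE), upstream of many genes whose products hinder viruses. The 10 genes take different places in that response. Isg15 encodes a ubiquitin-like protein that is coupled to other proteins and is also released from cells, and Usp18 encodes the protease that removes it and that also holds back signalling at the receptor. Ifit1, Ifit2, Ifit3 and Ifit3b encode tetratricopeptide repeat proteins that bind foreign RNA or act with those that do. Rsad2 encodes viperin, which makes a chain-terminating nucleotide, and Cmpk2 encodes a mitochondrial nucleotide kinase. Isg20 encodes an exonuclease of RNA, and Bst2 encodes tetherin, which holds budding virus on the cell surface and marks mouse plasmacytoid dendritic cells.

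The promoters are shown because several members, Bst2 least among them, were found together in the same cells with all classes pooled. The windows at the starts of the members differ in the ISRE letters. On GRCm38, Isg15 lies on chr4:156199424-156200818 (minus strand), Isg20 on chr7:78913424-78920396 and Bst2 on chr8:71534255-71537456 (minus strand). Ifit2, Ifit3, Ifit3b and Ifit1 lie in that order on the plus strand of chromosome 19. Between Ifit3 and Ifit3b lies 1 other protein-coding gene, and 1 more between Ifit3b and Ifit1. Rsad2 and Cmpk2 stand head to head on chromosome 12, 12.751 kb apart with 0 protein-coding genes between them. RefSeq promoter windows on GRCm38.p6, from 250 bases before to 50 after a start, were given for 9 of the 10 members. The ISRE letters, searched as GAAA, any 2 bases and GAAA again on both strands with overlaps counted, were in a window of 6 of these 9 members, and in 1131 of 32851 promoter windows in all (3.44%). The 5 windows printed here, with the first of 3 for Isg20, hold 3 matches for Isg15, 2 for Ifit3, 1 for Rsad2, 2 for Bst2 and 0 for Isg20, with the matches in capitals (on the other strand they read TTTC, 2 bases and TTTC). A match is a description of the letters and not a binding site. Their places are chr4:156200769-156201068 (minus strand), chr19:34583279-34583578 (plus), chr12:26456403-26456702 (minus), chr8:71537423-71537722 (minus) and chr7:78913174-78913473 (plus). The Isg15 matches overlap, and the nearest begins 66 bases before the start.
Isg15: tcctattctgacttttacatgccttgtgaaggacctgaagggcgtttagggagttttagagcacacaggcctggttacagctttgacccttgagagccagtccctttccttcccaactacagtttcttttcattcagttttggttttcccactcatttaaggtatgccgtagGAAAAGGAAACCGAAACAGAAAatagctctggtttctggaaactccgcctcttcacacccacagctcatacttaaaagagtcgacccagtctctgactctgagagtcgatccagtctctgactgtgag
Ifit3: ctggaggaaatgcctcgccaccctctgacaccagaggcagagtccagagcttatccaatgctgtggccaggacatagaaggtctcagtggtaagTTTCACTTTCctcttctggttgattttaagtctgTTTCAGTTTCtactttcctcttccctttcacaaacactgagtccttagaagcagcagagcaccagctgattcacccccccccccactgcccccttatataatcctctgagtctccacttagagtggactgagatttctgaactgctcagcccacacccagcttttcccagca
Rsad2: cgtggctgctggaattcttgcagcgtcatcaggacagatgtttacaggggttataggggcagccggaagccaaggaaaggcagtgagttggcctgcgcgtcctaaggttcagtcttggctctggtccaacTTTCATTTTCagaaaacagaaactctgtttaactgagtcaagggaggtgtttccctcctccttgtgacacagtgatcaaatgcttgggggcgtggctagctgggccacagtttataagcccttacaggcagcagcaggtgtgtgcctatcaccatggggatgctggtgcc
Bst2: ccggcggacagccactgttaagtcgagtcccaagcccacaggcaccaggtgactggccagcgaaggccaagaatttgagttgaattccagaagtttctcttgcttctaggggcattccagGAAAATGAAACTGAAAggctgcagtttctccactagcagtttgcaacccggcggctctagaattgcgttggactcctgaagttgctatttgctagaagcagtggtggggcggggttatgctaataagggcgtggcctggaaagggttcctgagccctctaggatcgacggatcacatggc
Isg20: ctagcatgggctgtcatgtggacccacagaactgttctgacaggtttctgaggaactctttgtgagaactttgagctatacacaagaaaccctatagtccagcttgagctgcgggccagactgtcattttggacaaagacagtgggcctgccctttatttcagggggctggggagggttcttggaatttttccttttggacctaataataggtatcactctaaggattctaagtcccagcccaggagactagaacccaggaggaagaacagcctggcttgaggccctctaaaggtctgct
Ifit1 and Ifit3b held 2 matches each, and the windows of Ifit2 and Cmpk2 held 0 exact matches, which says only that these letters are not in those windows.

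Across classes, the summed level of the 10 members was led by neutrophil-like cells, the short-lived granulocytes that enter inflamed tissue first. They held 841 CPM in NAV and 952 CPM in MOCK, and 886 CPM (864 to 909) over both libraries. Kupffer-like cells, macrophages that live in the liver sinusoids, followed among the large classes with 458 CPM in NAV and 505 CPM in MOCK. Conventional dendritic type 2 (cDC2-like) cells, which present antigen to helper T cells, had 394 and 272 CPM in NAV and MOCK. Macrophage-like cells had 203 and 383 CPM, classical monocyte-like cells, blood precursors of macrophages, 193 and 168 CPM, and B-like cells 61.7 and 127 CPM. Over both libraries the intervals of these large classes did not overlap in the order neutrophil, Kupffer, then cDC2 and macrophage, then classical monocyte, then B, whereas those of cDC2-like (340 CPM, 323 to 358) and macrophage-like cells (319 CPM, 311 to 328) did overlap. Among the small classes the sums over both libraries ran from 84.5 CPM in cDC1-like cells to 331 CPM in cycling cells, and the intervals of cycling, CD8 T-like, cDC2-like and macrophage-like cells overlapped from one to the next.

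**Figure D1:**
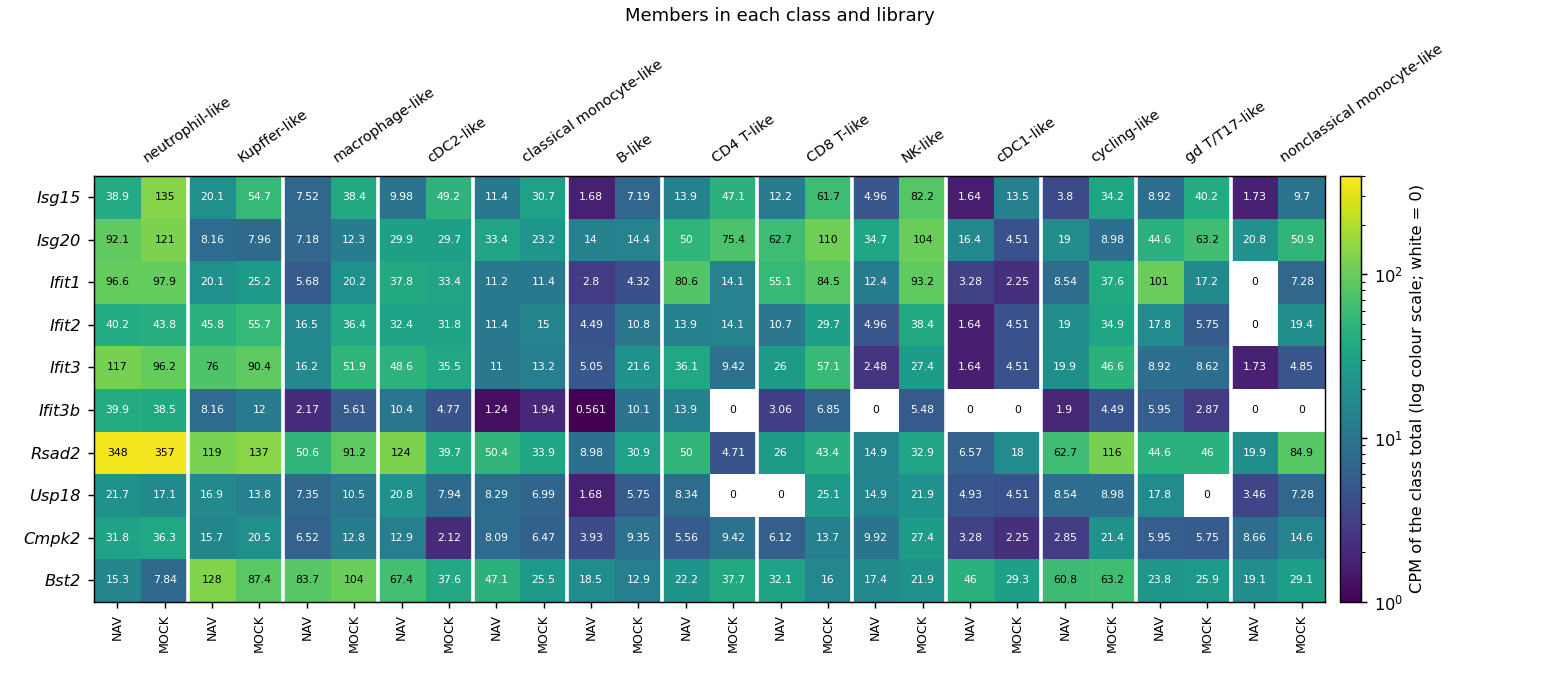
Level of each member (rows) in each class and library (columns, NAV left of MOCK), in CPM of the UMIs of that class, on a log colour scale with 0 in white. Each row should be read along its length, since levels of different genes were not set against each other. Isg15 is lower in NAV than in MOCK in all 13 classes, as at 38.9 and 135 CPM in neutrophil-like cells, while Rsad2 stands at 348 and 357 CPM there. In some small classes Isg15 rests on few UMIs, as on 2 in NAV and 4 in MOCK nonclassical monocyte-like cells.

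Single members did not all follow that order. Neutrophil-like cells led for Isg15, Isg20, Ifit1, Ifit3, Ifit3b, Rsad2 and Cmpk2 over both libraries. Their interval overlapped that of the next class for Isg15, Isg20 and Ifit1, and not for the others. For Isg15 and Ifit1 the next class was mature dendritic (mature DC-like) cells, under 50 cells in MOCK. Ifit1 was at 96.6 and 97.9 CPM in NAV and MOCK neutrophil-like cells and at 20.1 and 25.2 CPM in Kupffer-like cells. In gd T/T17-like cells it was at 101 and 17.2 CPM, above neutrophil-like cells in NAV. For Isg20 the next class was CD8 T-like cells, with 62.7 and 110 CPM in NAV and MOCK. Ifit2 was led among the large classes by Kupffer-like cells, at 45.8 and 55.7 CPM. Bst2 was at 15.3 CPM in NAV and 7.84 CPM in MOCK neutrophil-like cells, its lowest pair among the large myeloid classes. Plasmacytoid dendritic (pDC-like) cells held Bst2 at 540 CPM in NAV (129 cells) and 359 CPM in MOCK (42 cells), a type for which it is a marker. Across the 26 sums of the 13 classes in 2 libraries, each member's log2 level was set against the mean of the other 9. Pearson's r was 0.88 for Ifit2 and Ifit3, 0.80 for Ifit3b, 0.69 for Isg15, 0.31 for Isg20 and -0.07 for Bst2. These r values are a description, since sums of 1 library share its depth and its cells.

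Where the member UMIs came from differed between the libraries along with the makeup of the cells. Neutrophil-like cells gave 37.0% of the member UMIs of NAV and 17.4% of those of MOCK, with 14.3% and 6.74% of all UMIs. Macrophage-like cells gave 13.2% of the member UMIs in NAV and 27.1% in MOCK, and Kupffer-like cells 7.91% and 20.3%. Classes were therefore compared one by one, beside the ratio over all cells.

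Over all cells the 10 members together were nearly level, at 325 CPM in NAV and 368 CPM in MOCK, a log2 ratio of -0.18 (-0.22 to -0.14). Most of that gap was Isg15, which had 387 UMIs and 13.6 CPM in NAV against 1949 UMIs and 46.8 CPM in MOCK, a log2 ratio of -1.78 (-1.94 to -1.62). Without Isg15 the sum of the other 9 had a log2 ratio of -0.05. Isg15 was the 1 member past 2-fold, and 0 were 2-fold higher. Of the 13829 genes with at least 20 UMIs over both libraries, 6.02% were 2-fold lower and 5.43% 2-fold higher in NAV, so 1 of 10 members lower is near that background. Ifit2 (21.2 CPM in NAV and 31.9 CPM in MOCK, -0.58) and Ifit3 (35.2 and 47.3 CPM, -0.43) were the next lowest. Rsad2 stood at 100.3 CPM in NAV and 96.3 CPM in MOCK, with an interval of its ratio that held 0 (0.06, -0.01 to 0.13). The highest ratio was that of Isg20, at 32.1 CPM in NAV and 24.5 CPM in MOCK (0.39, 0.26 to 0.52). The median log2 ratio was -0.0015 over the 10 members and 0.06 over all genes.

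Isg15 was lower in NAV in each of the 13 classes, though some of the small ones held few of its UMIs. It had 2 NAV and 4 MOCK UMIs in nonclassical monocyte-like cells, 1 and 6 in cDC1-like cells and 5 and 10 in CD4 T-like cells. Neutrophil-like cells had 38.9 CPM of Isg15 in NAV and 135 CPM in MOCK (log2 ratio -1.80, -2.07 to -1.53). In Kupffer-like cells it was at 20.1 and 54.7 CPM (-1.45), in macrophage-like cells at 7.52 and 38.4 CPM (-2.35), in cDC2-like cells at 9.98 and 49.2 CPM (-2.30) and in classical monocyte-like cells at 11.4 and 30.7 CPM (-1.43). The intervals of these 5 ratios all lay below 0, and no cause of the difference was tested. In B-like cells Isg15 rested on 3 NAV and 10 MOCK UMIs (-2.10, -4.60 to -0.14) and turned to 0.32 in cells thinned to 1000 UMIs. The same direction was seen in CD8 T-like cells, at 12.2 CPM in NAV and 61.7 CPM in MOCK (-2.33, -3.68 to -1.15), and in NK-like cells, at 2 and 15 UMIs (-4.05, -7.22 to -1.95). Isg15 was the 1 member that was 2-fold lower in all 5 large classes other than B, where 81 of the 7914 genes with at least 20 UMIs in each of them (1.02%) were. Genes richest in GC over the last 500 transcript bases had lower ratios over all cells, with medians of -0.25 in the highest decile and 0.11 in the lowest, and Isg15 is at 51.6% GC there. After the median ratio of its GC decile was subtracted, Isg15 was at -1.72 over all cells.

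**Figure D2:**
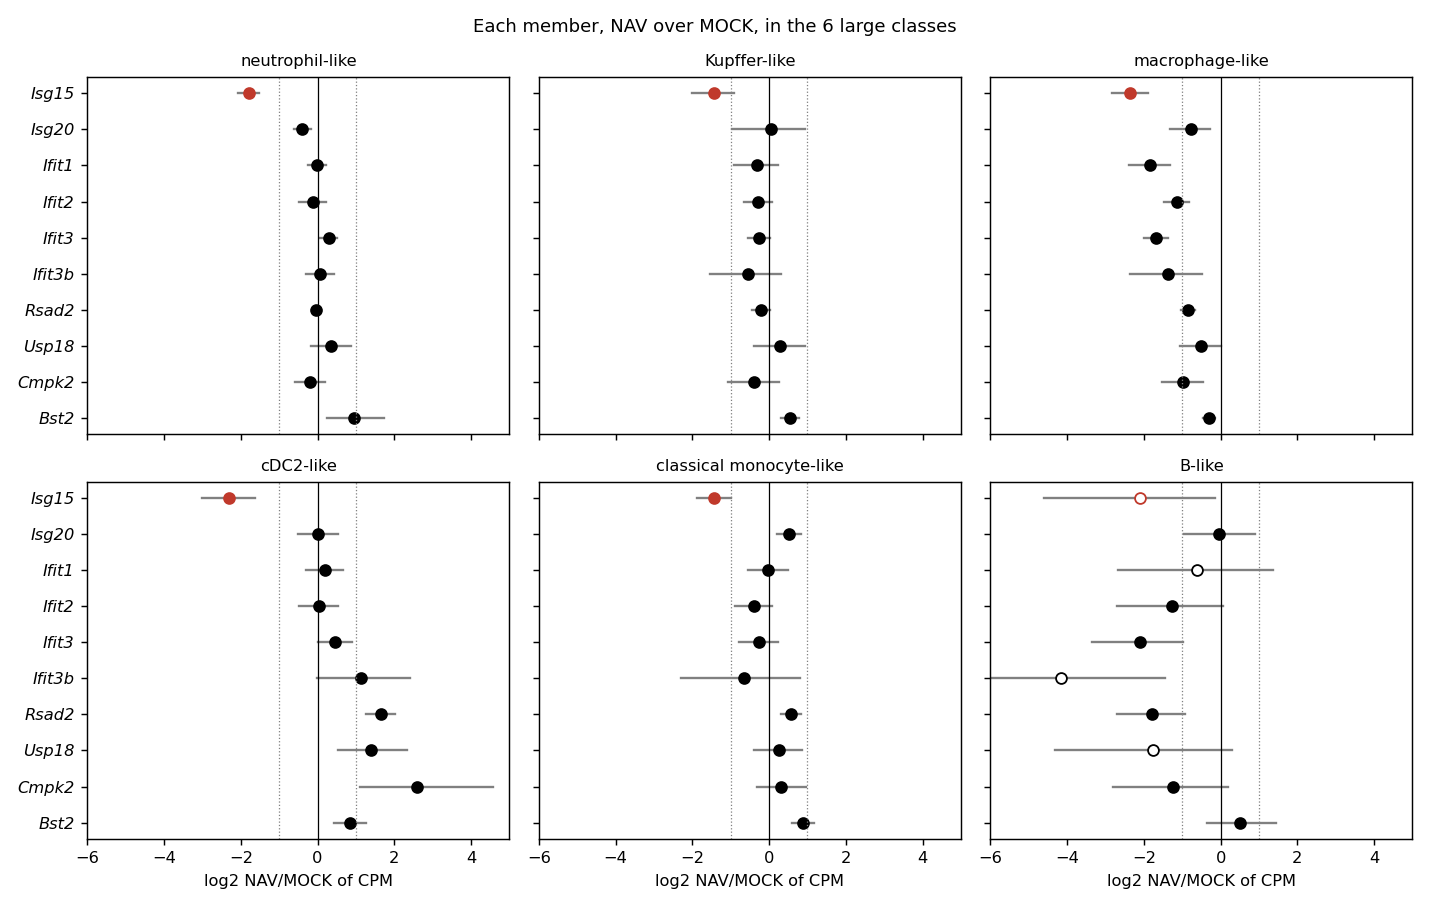
Log2 ratio of NAV over MOCK CPM for each member (rows, Isg15 in red) in the 6 large classes, with 95% intervals for counting error as bars and open points for members with under 20 UMIs over both libraries. Dotted lines mark 2-fold. Isg15 lies left of -1 in every panel, all 10 members lie left of 0 in macrophage-like cells, and 4 lie right of 1 in cDC2-like cells.

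The gap between Isg15 and the other members was also seen within single cells. Among cells with a UMI of at least 3 of the other 9 members, an Isg15 UMI was found in 94 of 381 NAV cells (24.7%, exact Clopper-Pearson interval 20.4 to 29.3%) and in 326 of 601 MOCK cells (54.2%, 50.2 to 58.3%). The NAV cells were shallower, with a median of 3351 UMIs against 6423 in MOCK. In neutrophil-like cells the depths were close, at medians of 1309 and 1322 UMIs, and Isg15 was seen in 22.5% of 151 NAV and 71.9% of 89 MOCK cells. Kupffer-like (20.3% of 59 NAV and 39.5% of 190 MOCK cells) and macrophage-like cells (19.5% of 41 and 54.9% of 144) had the same direction. For every 100 UMIs of the other 9 members these neutrophil-like cells held 2.33 Isg15 UMIs in NAV and 9.32 in MOCK. Among neutrophil-like cells with no UMI of the other 9, Isg15 was found in 2.02% of NAV and 6.95% of MOCK cells. In B-like cells without the other 9, whose median depths were 1370 and 1271.5 UMIs in NAV and MOCK for the whole class, it was found in 0.181% and 0.207%.

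**Figure D3:**
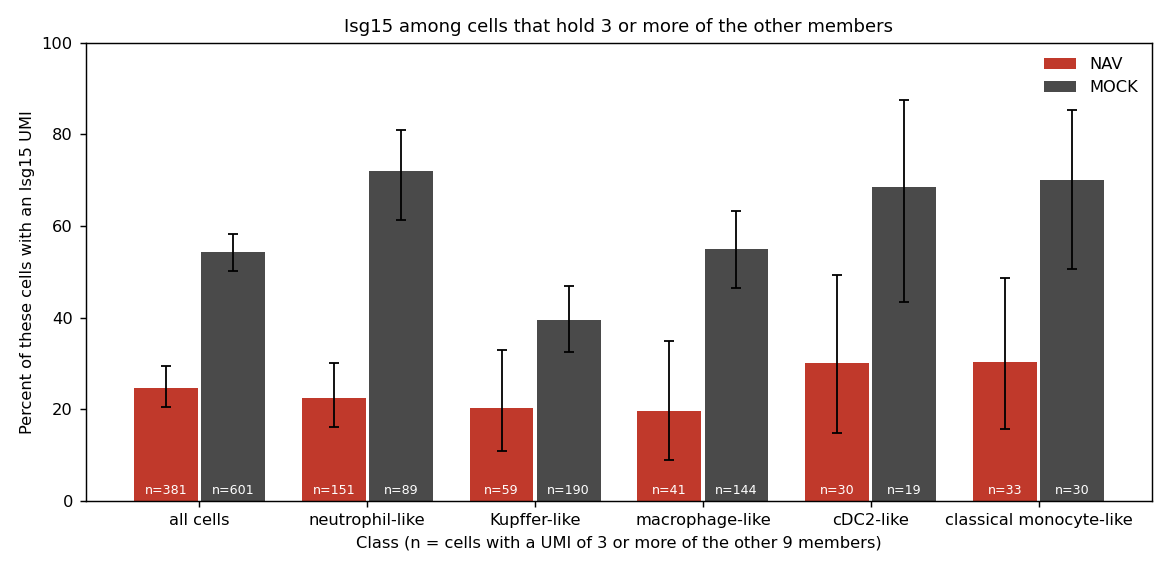
Percent of cells with an Isg15 UMI among cells that held a UMI of at least 3 of the other 9 members, by class, NAV left of MOCK. Exact 95% intervals and the number of such cells are drawn for each bar. Cells were not thinned. The share is lower in NAV in each class drawn, and the intervals of NAV and MOCK do not overlap over all cells and in neutrophil-like, macrophage-like and classical monocyte-like cells.

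Among the 6 large classes, macrophage-like cells were the one in which all 10 members were lower in NAV. The sum was 203 CPM in NAV and 383 CPM in MOCK, a log2 ratio of -0.91 (-1.01 to -0.82), and all 10 members had ratios below 0. A total of 5 members, Isg15, Ifit1, Ifit2, Ifit3 and Ifit3b, were 2-fold lower and 0 were 2-fold higher, against 6.43% of 10935 genes lower and 1.66% higher. Ifit1 was at 5.68 CPM in NAV and 20.2 CPM in MOCK (-1.83, -2.40 to -1.31), and Ifit3 at 16.2 and 51.9 CPM (-1.68, -2.01 to -1.37). Rsad2 stood at 50.6 and 91.2 CPM (-0.85), and Bst2, the least lowered, at 83.7 and 104 CPM (-0.31, -0.46 to -0.15). The median over the members was -1.06, beside 0.01 over all genes tested. The sum kept its direction under every alternative, between -0.39 and -1.22. The count of 5 members 2-fold lower was 1 with the interferon genes left in the clustering and 7 with equal weight per cell.

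Within that class the clusters differed. In cells led by Arg1 and Spp1 (444 NAV and 176 MOCK cells) the sum was 88.8 CPM in NAV and 250 CPM in MOCK (-1.49, -1.78 to -1.21). The largest MOCK cluster, led by Pmepa1 and Tmem119 (321 and 868 cells), had 276 and 519 CPM (-0.91), and cells led by Gpnmb (200 and 422 cells) had 124 and 194 CPM (-0.64). Cells led by the heat shock genes Hspa1a and Hspa1b (262 and 479 cells) had 394 CPM in NAV and 364 CPM in MOCK, with an interval that held 0 (0.12, -0.06 to 0.29). The Arg1 cluster, low in members, was also a larger part of the NAV class.

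Neutrophil-like cells, which hold the highest levels, differed little in sum (-0.18, -0.25 to -0.10), and without Isg15 the log2 ratio was -0.02. Isg15 was the 1 member 2-fold lower and 0 were 2-fold higher, against 4.33% of 9155 genes lower and 13.3% higher. The median over all genes in this class was 0.34, and with median-of-ratios scaling the sum was at -0.52. The sum turned to 0.12 with doublets kept and to 0.04 with the libraries clustered separately. Cells led by Retnlg and Ngp (661 NAV and 1328 MOCK cells) had 1435 CPM in NAV and 1019 CPM in MOCK (0.49, 0.39 to 0.59). Cells led by Il23a and Cxcl3 (1639 and 211 cells) had 618 and 911 CPM (-0.56, -0.77 to -0.35). Those led by Siglecf (985 and 506 cells) had 737 and 748 CPM, with an interval that held 0 (-0.02, -0.19 to 0.15). The near-level sum thus holds a higher and a lower cluster, and the lower one was the larger part of the NAV class.

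**Figure D4:**
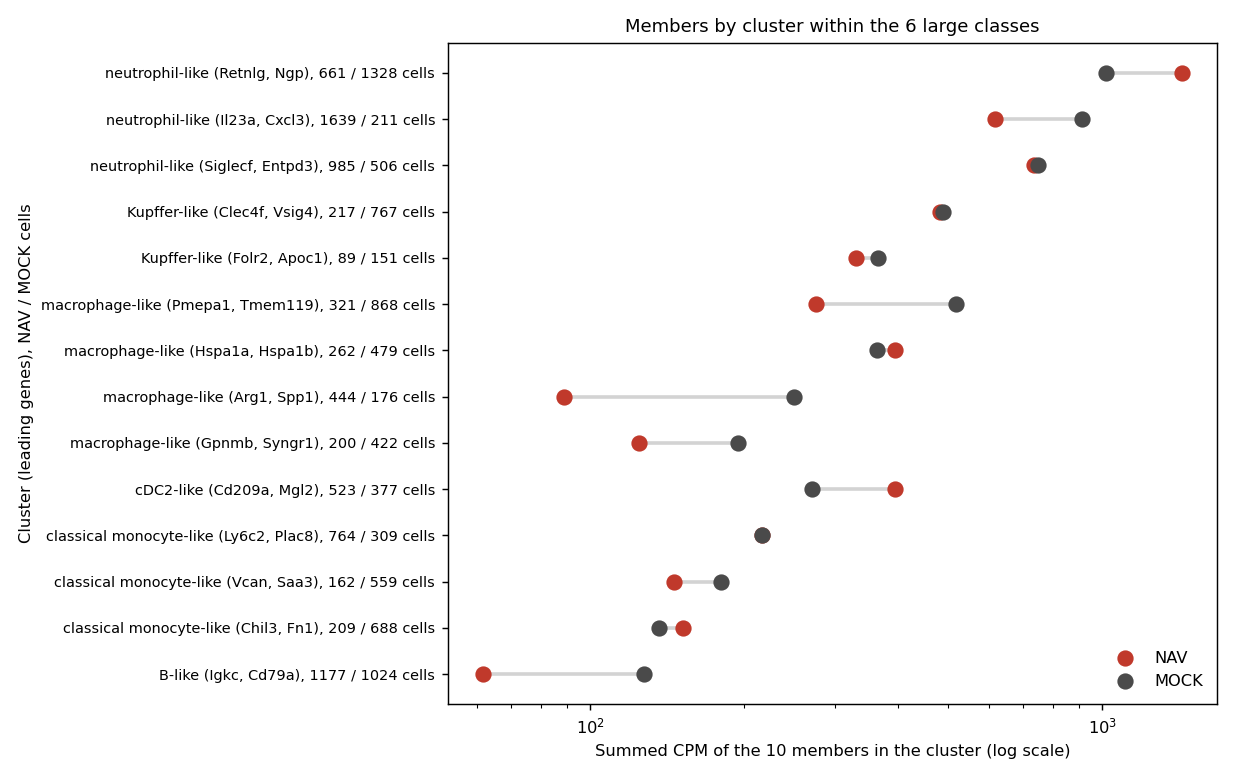
Summed CPM of the 10 members in each cluster of at least 100 cells within the 6 large classes, on a log axis, with NAV in red and MOCK in grey and cell numbers as NAV / MOCK. The widest gaps are the Arg1 and Spp1 macrophage-like cluster, at 88.8 CPM in NAV and 250 CPM in MOCK, and the B-like cells, at 61.7 and 127 CPM.

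In cDC2-like cells the members split. The sum was 394 CPM in NAV and 272 CPM in MOCK (0.54, 0.38 to 0.69), with 4 members 2-fold higher and Isg15 2-fold lower, against 2.32% of 8846 genes higher and 4.69% lower. Rsad2 had 298 UMIs in NAV and 75 in MOCK, or 124 and 39.7 CPM (1.64, 1.27 to 2.03). Usp18 had 50 and 15 UMIs (1.39), Ifit3b 25 and 9 (1.13, -0.02 to 2.41) and Cmpk2 31 and 4 (2.61, 1.11 to 4.57). These UMIs sat in few cells: Rsad2 was found in 42 NAV and 33 MOCK cells, and 1 NAV cell held 70 of its 298 UMIs. The ratio of the sum was 0.09 with equal weight per cell, 0.09 in cells thinned to 1000 UMIs and -0.04 without the 5% of cells highest in the members. Bst2 was found in 121 NAV and 61 MOCK cells and was at 67.4 and 37.6 CPM (0.84, 0.43 to 1.26).

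Kupffer-like and classical monocyte-like cells had small ratios of the sum. In Kupffer-like cells it was -0.14 (-0.26 to -0.02), with Isg15 the 1 member 2-fold lower and 0 higher, against 6.88% of 10045 genes lower and 1.8% higher. Bst2 went the other way there, at 128 CPM in NAV and 87.4 CPM in MOCK (0.55, 0.31 to 0.79). A cluster that also held B cell genes (11 NAV and 36 MOCK cells) was high in MOCK, and without it Kupffer-like cells had 470 CPM in NAV and 484 CPM in MOCK (-0.04). In classical monocyte-like cells the sum was at 0.20 (0.08 to 0.32), again with 1 member, Isg15, 2-fold lower and 0 higher, against 6.36% of 10104 genes lower and 0.98% higher. Bst2 (47.1 CPM in NAV and 25.5 CPM in MOCK, 0.88), Rsad2 (50.4 and 33.9 CPM, 0.57) and Isg20 (33.4 and 23.2 CPM, 0.53) had intervals above 0. The sum was at -0.06 in cells thinned to 1000 UMIs. By cluster, cells led by Ly6c2 and Plac8 (764 NAV and 309 MOCK cells) had 216 and 217 CPM (-0.0044, -0.20 to 0.20). Those led by Chil3 and Fn1 (209 and 688 cells) had 152 and 136 CPM (0.16, -0.14 to 0.44). Those led by Vcan and Saa3 (162 and 559 cells) had 146 and 180 CPM (-0.30, -0.61 to -0.0087). The Ly6c2 cluster, highest in members, was a larger part of the NAV class, and the part of this makeup in the sum was not tested.

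B-like cells had the lowest level of the large classes, and their ratio rests on few cells. The sum was 110 UMIs in NAV and 177 UMIs in MOCK (-1.05, -1.40 to -0.69), and 4 of the 6 members with at least 20 UMIs, Ifit2, Ifit3, Rsad2 and Cmpk2, were 2-fold lower, against 4.96% of 8778 genes lower and 1.18% higher. Of the 177 MOCK UMIs, 99 came from 1 cell, as did 40 of the 43 UMIs of Rsad2. In cells thinned to 1000 UMIs the ratio was -0.05, and without the 5% of cells highest in the members it was 1.45. Among the small classes the sum was lower in NAV in NK-like (117 and 455 CPM, -1.96) and nonclassical monocyte-like cells (75.4 and 228 CPM, -1.60). It was also lower in CD8 T-like cells (234 and 448 CPM, -0.93) and cycling cells (207 and 377 CPM, -0.86). Its interval held 0 in CD4 T-like (295 and 212 CPM, 0.48), gd T/T17-like (279 and 215 CPM, 0.38) and cDC1-like cells (85.4 and 83.3 CPM, 0.04). Single cells weigh on the lower sums too. The highest NK-like cell held 7 of the 47 member UMIs in NAV and 27 of the 83 in MOCK. In nonclassical monocyte-like cells it held 8 of 87 and 30 of 94. In CD8 T-like cells it held 29 of 153 and 35 of 196, and in cycling cells 25 of 218 and 190 of 1091.

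Single members could be followed in the small classes only where UMIs allowed. In CD8 T-like cells 3 of the 7 members with at least 20 UMIs, Isg15, Ifit2 and Ifit3, were 2-fold lower and 1, Bst2, higher, against 5.34% of genes lower and 2.99% higher. In cycling cells 4 of 9, Isg15, Ifit1, Ifit3 and Cmpk2, were lower and 1, Isg20, higher, against 9.38% and 2.78%. Both members that could be followed in NK-like cells, Isg20 (14 NAV and 19 MOCK UMIs) and Ifit1 (5 and 17), were 2-fold lower, against 4.69% of genes lower and 4.56% higher. In nonclassical monocyte-like cells 2 of 3, Isg20 and Rsad2, were lower and 0 higher, against 5.1% and 4.92%. Ifit1 was the 1 member 2-fold higher in CD4 T-like cells (29 and 3 UMIs, 1 of 2 members, against 5.34% of genes lower and 4.71% higher) and in gd T/T17-like cells (34 and 6 UMIs, 1 of 3, against 5.23% and 3.4%). The Ifit1 UMIs of NAV lay in 6 cells in each of the pair, with up to 16 UMIs in 1 CD4 T-like cell and up to 13 in 1 gd T/T17-like cell. In cDC1-like cells 0 of 1 was past 2-fold, against 6.4% of genes lower and 3.99% higher. Below 50 cells in MOCK, pDC-like cells had 0 of 2 past 2-fold, against 5.08% lower and 6.45% higher. Mature DC-like cells had 1 of 6, Isg15, lower and 3, Ifit1, Ifit2 and Usp18, higher, against 6.77% and 4.95%.

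Most cells held no member UMI, and a small share held most of them. After each cell was thinned to 1000 UMIs (8527 NAV and 9273 MOCK cells, with 1278 and 845 shallower cells left out), 15.7% of NAV cells (14.9 to 16.5%) and 18.2% of MOCK cells (17.4 to 19.0%) had a UMI of any member. Without thinning the shares were 29.1% and 40.2%. The 5% of cells with the most held 72.4% of the member UMIs in NAV and 68.0% in MOCK. A UMI of at least 3 members was found in 1.85% of NAV and 1.98% of MOCK cells, with overlapping intervals, and in 4.67% and 4.68% of neutrophil-like cells. In macrophage-like cells these shares were 0.824% in NAV (0.396 to 1.51%) and 2.08% in MOCK (1.49 to 2.82%), with intervals that just overlap. B-like cells had the lowest share with any member among the large classes, 4.35% in NAV and 4.00% in MOCK. No class is known to lack these genes, so no background share was subtracted.

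**Figure D5:**
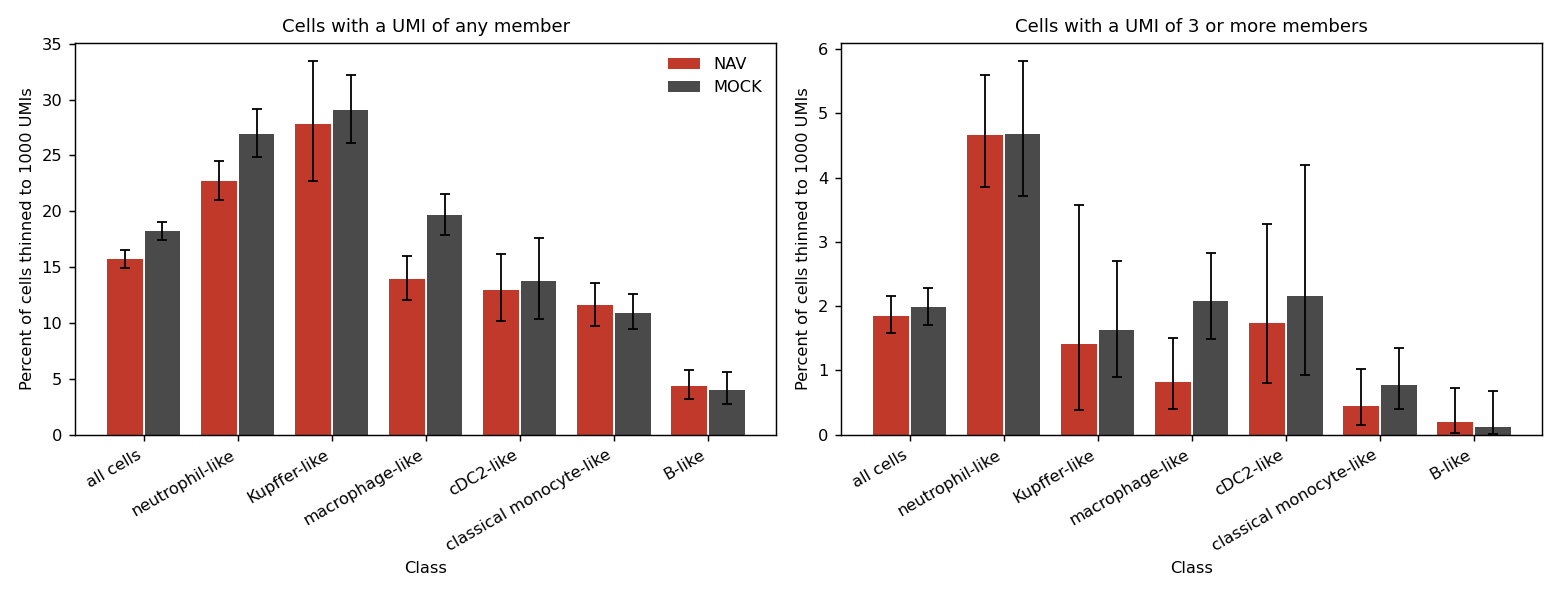
Percent of cells thinned to 1000 UMIs with a UMI of any member (left panel) and of at least 3 members (right panel), NAV left of MOCK, with exact 95% intervals. Shares with at least 3 members are 4.67% in NAV and 4.68% in MOCK neutrophil-like cells, and 0.824% and 2.08% in macrophage-like cells.

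Members were found together. Among 464 thinned NAV cells with an Rsad2 UMI, 22.4% also had Ifit3, 19.6% Isg20 and 11.9% Ifit3b, against 1.22%, 2.74% and 0.360% of NAV cells without Rsad2. Among 482 such MOCK cells the shares were 23.4%, 15.4% and 8.51%, against 1.68%, 2.90% and 0.262%. Isg15 stood at 10.3% of NAV and 22.8% of MOCK cells with Rsad2. Bst2 differed least, at 6.68% with and 4.23% without it in NAV and 5.81% and 4.58% in MOCK. These shares pool all classes. Rsad2, Ifit3, Isg20 and Ifit3b were each highest in neutrophil-like cells over both libraries, where Bst2 was lowest. Shares within single classes are not given here, and the part of class makeup in them was not tested. Ifit3 and Ifit3b share 14.9% of the 50-base words of the last 500 bases of Ifit3, so part of their reads may have been split or dropped between them.

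Upstream of the members, UMIs of the ligands were few. Of 20 type I and type III interferon genes, Ifnb1 had 1 UMI in NAV, in 1 macrophage-like cell, and 20 UMIs in MOCK, in 11 cells of which 5 were Kupffer-like, 3 cycling, 2 macrophage-like and 1 classical monocyte-like (-3.77, -9.14 to -1.12). Ifna2, Ifnab and Ifnz had 1 UMI each in MOCK and 0 in NAV. With 3 UMIs taken as the upper limit, and not the exact interval used elsewhere, 0 UMIs allow up to 0.106 CPM in NAV and 0.072 CPM in MOCK. Of 15 sensors and adaptors, 0 were past 2-fold over all cells (median -0.15). The lowest were Tlr3, a sensor of double-stranded RNA, at 4.26 CPM in NAV and 7.77 CPM in MOCK (-0.87), and Tlr7, a sensor of single-stranded RNA (767 UMIs in NAV and 1660 in MOCK, -0.56). The highest were Zbp1, a sensor of Z-form nucleic acid (42.2 and 30.8 CPM, 0.46), and Irf3, the factor that switches on Ifnb1 (18.3 and 14.2 CPM, 0.36).

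Of 10 receptor and signalling genes, 1 was 2-fold lower and 0 higher over all cells (median 0.09), near the share over all genes of 6.02% lower and 5.43% higher. It was Irf7, the factor that amplifies interferon production, at 25.4 CPM in NAV and 64.2 CPM in MOCK (-1.34, -1.46 to -1.22). Irf7 was also 2-fold lower in neutrophil-like (28.1 and 59.1 CPM, -1.07), macrophage-like (14.9 and 43.2 CPM, -1.54) and Kupffer-like cells (73.4 and 168 CPM, -1.20), while it was within 2-fold in cDC2-like (-0.85), classical monocyte-like (-0.42) and B-like cells (-0.20, -1.02 to 0.62). Socs1, a brake on JAK signalling, went the other way over all cells, at 17.7 CPM in NAV and 10.9 CPM in MOCK (0.70, 0.51 to 0.89). Socs3 was at 149 and 179 CPM (-0.27). The 4 genes of ISG15 conjugation stayed within 2-fold, with the ligase genes Trim25 at -0.20 and Herc6 at -0.16, and Ube2l6, its E2 enzyme, at 0.06 and Uba7, its E1 enzyme, at 0.11.

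Of 62 other antiviral effectors in the tables, 61 had at least 20 UMIs over all cells, 4 of them 2-fold lower and 1 higher (median -0.04), near the share over all genes of 6.02% lower and 5.43% higher. The lowest were Oas1g (3.45 CPM in NAV and 14.4 CPM in MOCK, -2.06) and Oas1a (16.5 and 57.1 CPM, -1.80), which make the messenger that activates RNase L, and the highest was Ifit1bl2 (3.59 and 1.73 CPM, 1.06), a relative of Ifit1, followed by Phf11c (2.18 and 1.73 CPM, 0.34). Oas1a was 2-fold lower in each large class but B, from -1.82 in Kupffer-like to -1.16 in classical monocyte-like cells. In macrophage-like cells 9 of 59 effectors were 2-fold lower and 1 higher, with a median of -0.38, against 6.43% of all genes lower and 1.66% higher and a median of 0.01. In neutrophil-like cells 8 of 55 were lower and 0 higher, with a median of -0.23, against 4.33% and 13.3% and a median of 0.34. In cDC2-like cells 4 of 56 were lower and 1 higher (median 0.13), against 4.69% and 2.32%.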

How the data were processed

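CD45+ leukocytes of 1 NAV and 1 MOCK pool were measured on the BD Rhapsody platform. The authors deposited UMI counts per gene and barcode as sparse matrices, not normalized. The tools listed, per the submitters' processing notes, were Cell Ranger, STARsolo 2.7.10a and fastp, with the mm10 build and no role or order given. The members and lists were chosen with earlier results of these data known. From each pathway list, the genes named are the pair with the highest and the pair with the lowest ratio over all cells, and the genes most like the members are those with the highest Pearson's r. One gene this rule names is not reported here.

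From the counts, barcodes with at least 500 UMIs and 200 genes and at most 20% mitochondrial UMIs were kept. Automatic Scrublet thresholds marked 0 NAV and 1 MOCK barcodes, so cells with a doublet score over 0.25 and clusters with a median score over 0.10 were removed (174 and 462 in NAV, 176 and 476 in MOCK). Cells were clustered with scanpy 1.11.5 (2000 variable genes, 30 principal components, 15 neighbours, Leiden resolution 1 with leidenalg 0.10.2) without the interferon genes, and named where at least 3 markers of a type were found in 10% of cells and higher by 0.5 or more on the log2 scale, with 1 of them among the top 10 genes or 60% of them higher. The naming thresholds were set after the data were seen. Unnamed clusters held 580 NAV and 1113 MOCK cells. Class levels (CPM) are the summed UMIs of a gene in a class over all UMIs of that class, within 1 library. Exact Poisson and conditional binomial intervals cover counting error only. Ratios were given for genes with at least 20 UMIs over both libraries, and past 2-fold was used as a rule of size, not a test. With 1 library per group no p-value was computed. Shares of cells were taken after thinning each cell to 1000 UMIs, with exact Clopper-Pearson intervals. Only the interval of the log2 ratio and the 2-fold rule were tested on simulated data. These were independent counts per gene, modelled on the sums of neutrophil-like, macrophage-like and cDC2-like cells. They leave out the gathering of UMIs in single cells. Clustering, naming, doublet removal and thinning were not simulated. Python 3.11.15, scipy 1.17.1, numpy 2.4.6, pandas 2.3.3 and matplotlib 3.10.9 were used.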

Additional observations from a re-analysis of the deposited data

Results flagged for a closer look

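For 3 members the ratio was past 2-fold in opposite directions in a pair of large classes, and the difference between the classes was not tested. Ifit3b had a log2 NAV over MOCK ratio of 1.13 in cDC2-like cells, from 25 NAV and 9 MOCK UMIs, and of -1.37 in macrophage-like cells, from 13 and 61 UMIs. Rsad2 was at 1.64 in cDC2-like cells and at -1.79 in B-like cells, where 1 MOCK cell held 40 of the 43 MOCK UMIs. Cmpk2 was at 2.61 in cDC2-like cells, where 1 NAV cell held 12 of its 31 NAV UMIs, and at -1.25 in B-like cells, from 7 NAV and 13 MOCK UMIs. With 1 library per group, these values carry no replicate check.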

How the results depend on the processing

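Isg15 was lower in NAV under every alternative run in the 5 large classes other than B, with log2 ratios from -2.66 to -1.27, and it reached -1.94 in thinned classical monocyte-like cells and -2.14 in neutrophil-like cells with median-of-ratios scaling. In B-like cells it turned to 0.32 after thinning. The sum in macrophage-like cells stayed lower in NAV, at -0.73 with the stricter cell filter, -0.69 with doublets kept, -0.72 at Leiden resolution 2.0, -0.39 with the interferon genes in the clustering, -1.06 as the median of the members, -0.81 without Isg15, -1.22 without Bst2 and -0.69 without the 5% of cells highest in the members. The count of members 2-fold lower there was 3, 3, 2 and 1 under the first 4 of these, against 5, and it was 6 with separate clustering or GC correction and 7 with equal weight per cell or thinning.

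Over all cells the sum was -0.062 with equal weight per cell, -0.25 with median-of-ratios scaling, -0.077 thinned, -0.0015 as the median of the members, -0.26 with equal weight per large class, -0.047 without Isg15 and -0.31 without the highest 5% of cells. In neutrophil-like cells it turned to 0.12 with doublets kept and 0.040 with separate clustering, and was -0.52 with median-of-ratios scaling, -0.51 after GC correction, -0.030 as the median of the members and -0.025 without Isg15; 1 member was 2-fold higher with equal weight per cell. In Kupffer-like cells it turned to 0.014 at resolution 2.0 and 0.18 without the highest 5%, and was -0.27 as the median of the members and -0.34 without Bst2, with 2 members lower after thinning. In cDC2-like cells it was 0.24 with the interferon genes, 0.086 with equal weight per cell, 0.090 thinned and 0.79 without Isg15, and turned to -0.037 without the highest 5%; 0 members were lower after thinning, and 2 and 1 were higher with the interferon genes and after thinning. In classical monocyte-like cells it was 0.0056 at resolution 2.0, 0.47 with the interferon genes, 0.40 with separate clustering, 0.40 without Isg15, 0.036 without Bst2 and 0.55 without the highest 5%, and turned to -0.057 after thinning, with 2 and 3 members lower with doublets kept and at resolution 2.0. In B-like cells it was -1.56 with the stricter filter, -1.99 with doublets kept, -1.79 at resolution 2.0, -0.074 with the interferon genes, -0.32 with equal weight per cell, -0.049 thinned and -1.40 without Bst2, and turned to 1.45 without the highest 5%. Members 2-fold lower there numbered 7, 8, 7, 0, 0 and 0 under the first 6 of these and 7 with no minimum of UMIs. Without thinning, 29.1% of NAV and 40.2% of MOCK cells had a member UMI. The cause was not tested in any of these cases. The alternatives without Isg15, without Bst2 and without the highest 5% of cells were chosen after seeing the data. No paired analysis was possible because each group is 1 library. Depth limits the classes with few member UMIs, of which B-like cells held 110 in NAV and 177 in MOCK.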

Other observations

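Plasmacytoid dendritic (pDC-like) and mature dendritic cells, both under 50 cells in MOCK, had high member sums. In pDC-like cells (129 NAV and 42 MOCK cells) the sum was 683 CPM in NAV and 456 CPM in MOCK (log2 ratio 0.58, 0.20 to 0.99), and Bst2 gave 238 of the 301 NAV and 52 of the 66 MOCK UMIs. In mature DC-like cells (88 and 43 cells) it was 693 and 417 CPM (0.73, 0.36 to 1.11), where 1 NAV cell held 113 of the 252 NAV UMIs, with Ifit2 at 36 UMIs in NAV and 3 in MOCK and Isg15 at 44.0 and 110 CPM.

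Genes that lean to interferon-gamma, the type II interferon of T and NK cells, were higher in NAV in some classes, unlike Isg15. Of 24 listed, 23 had at least 20 UMIs over all cells, and 3 were 2-fold higher and 0 lower, with a median of 0.47, against 5.43% of all genes higher and 6.02% lower and a median of 0.06. Cxcl9, a chemokine that draws T cells, was at 80.2 CPM in NAV and 17.9 CPM in MOCK over all cells (2.16), and at 350.1 and 36.5 CPM in cDC2-like cells (3.26). Tgtp1 was the highest over all cells, with 35 NAV and 7 MOCK UMIs (2.88), and Gbp8 (-0.36) and Gbp9 (-0.26) were the lowest. In cDC2-like cells 11 of 19 were 2-fold higher and 0 lower (median 1.08), against 2.32% of all genes higher and 4.69% lower. In classical monocyte-like cells 7 of 19 were higher and 1 lower (median 0.72), against 0.98% and 6.36%. In macrophage-like cells 1 of 22 was higher and 0 lower (median -0.15), against 1.66% and 6.43%. These are counts in 1 library per group and carry no test.

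Across the 26 sums of 13 classes, the genes whose log2 level was most like the mean of the members were Rtp4 (Pearson's r 0.85), Nfkbiz (0.76), Vmp1 (0.74), Slfn8 (0.71) and Ccrl2 (0.71), as a description with no test.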
